A study of Mus musculus with 6 samples.

Results

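The genes described here are 10 enzymes of oxidative stress defence, Hmox1, Nqo1, Gclc, Gclm, Txnrd1, Srxn1, Prdx1, Sod1, Sod2 and Cat, out of 31253 genes in the deposited matrices. They were taken by symbol from a list of oxidative stress defence enzymes, and all 10 symbols were found once each. Superoxide, which mitochondria and phagocyte oxidases release, is turned into hydrogen peroxide by the superoxide dismutases, and peroxide is then removed by catalase and by the peroxiredoxins. Glutathione and thioredoxin supply the electrons for much of this work, and haem oxygenase and quinone reductase handle free haem and reactive quinones. Many of these genes are known targets of NRF2, a transcription factor that is held back by KEAP1 and binds the antioxidant response element together with a small MAF protein. In blood, monocytes and neutrophils are known as sources of oxidants.

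The study profiled peripheral blood mononuclear cells of male mice by single-cell RNA sequencing with the BD Rhapsody system, which counts unique molecular identifiers (UMIs) at the 3′ ends of transcripts. The T2D group, 3 libraries, came from mice made diabetic by intraperitoneal streptozotocin (STZ), which destroys the beta cells of the pancreas, and the Con group, 3 libraries, from mice injected with saline. All mice were 12 to 13 weeks old. The series title names a high-fat diet together with STZ, but the labels give no diet for either group, no strain, and no statement of whether 1 mouse or several went into a library. The p-values therefore speak for the spread among 6 libraries, part of which may be technical.

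The T2D libraries held 9112, 8900 and 8196 barcodes with 29329361, 32321855 and 29712873 UMIs, and the Con libraries held 7617, 7404 and 8178 barcodes with 25580045, 23574052 and 27157764 UMIs. No library stood apart by its median of 2776 to 3184 UMIs per cell. Any 2 libraries shared 65 to 89 cell barcode sequences, and no pair had counts alike within sampling noise. Of 47381 cells kept, 37456 carried enough markers of 1 lineage for a class name, and 8 classes with at least 30 cells in every library were compared: 599 classical monocytes, 882 non-classical monocytes, 861 neutrophils, 473 platelets, 994 NK cells, 6075 CD8 T cells, 4275 CD4 T cells and 22935 B cells. Cells of each class carried on average 5.07 to 5.77 of the 6 or 7 markers of their own list, and T cells, read from a T cell list, were split by Cd4 or by Cd8a and Cd8b1. Neutrophils here are those that stayed in the mononuclear layer. Because a marker counts once it has a UMI, shallow cells were less likely to receive a class. Levels are given in CPM, the UMIs of a gene per 1000000 UMIs summed over the cells of a class in a library, and fold changes come from edgeR's quasi-likelihood test on the same sums after TMM scaling, with Benjamini-Hochberg adjustment over all genes tested in the class and a call at an adjusted p under 0.05.

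Across cell types, each gene had its own pattern. Platelets had the highest CPM of Gclm, Srxn1 and Cat by a wide margin, non-classical monocytes had the highest CPM of Hmox1, both monocyte classes led for Prdx1 and Sod2, and NK cells had the highest CPM of Txnrd1. With each class set against the mean of the other 7, and Nqo1 too low to be tested, 9 of 9 members passed in neutrophils (61.3% of 8882 genes), 7 of 9 in platelets (59.1%), 7 of 9 in B cells (74.9%), 7 of 9 in CD4 T cells (71.9%), 7 of 9 in CD8 T cells (73.3%), 6 of 9 in classical monocytes (59.2%), 6 of 9 in non-classical monocytes (55.1%) and 5 of 9 in NK cells (58%). Most genes of the transcriptome differed between these classes, so such counts say little that is particular to the 10 genes, and their levels follow. In these comparisons TMM scaling placed neutrophils and platelets higher, relative to the other classes, than CPM does, so in some places the order by CPM and the order in the test differ.

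**Figure D1:**
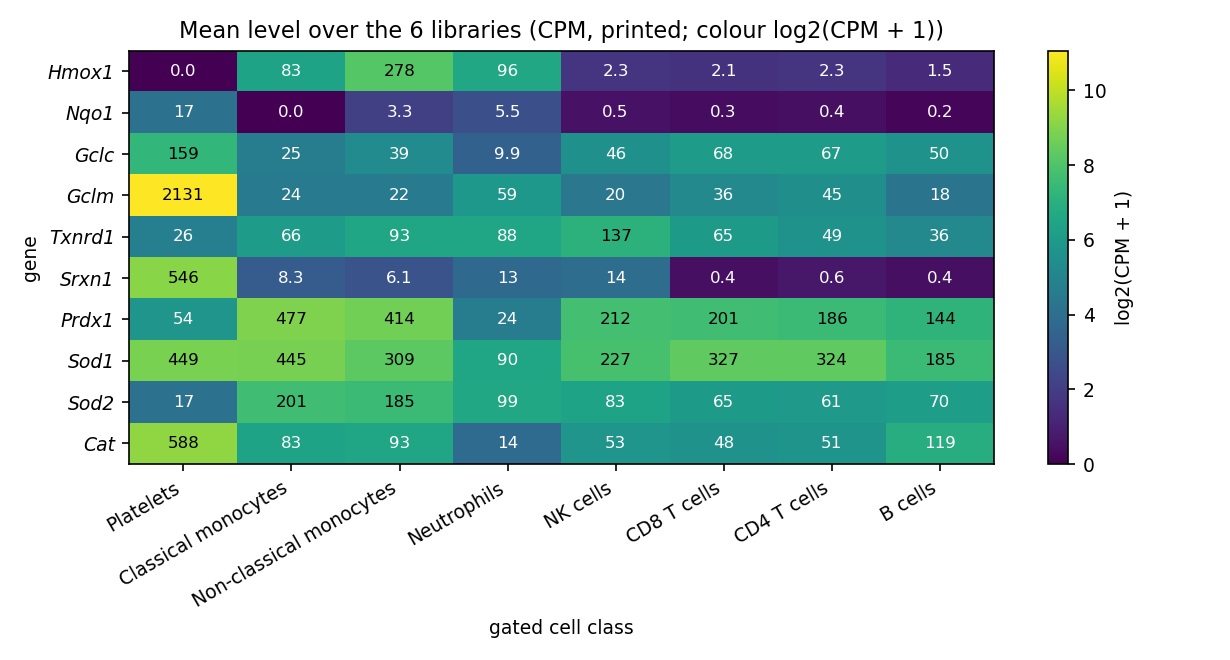
Mean CPM over the 6 libraries of each of the 10 genes (rows) in each of the 8 gated classes (columns), printed in the cell and coloured by log2(CPM + 1). Gclm stood at 2131 CPM in platelets and Hmox1 at 278 CPM in non-classical monocytes. Rows are to be read along a gene and not between genes.

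Hmox1, haem oxygenase 1 (chr8:75093621-75100589, plus strand, GRCm38), cleaves haem into biliverdin, iron and carbon monoxide. It averaged 278 ± 194 CPM in non-classical monocytes, 95.6 ± 37.0 CPM in neutrophils and 83.3 ± 22.8 CPM in classical monocytes (SD, n = 6 libraries). Non-classical monocytes stood above neutrophils by 0.98 ± 0.21 on the log2 scale (SE; adjusted p = 0.000166), and neutrophils above classical monocytes, whose fitted difference (classical monocytes minus neutrophils) was -0.76 ± 0.26 (adjusted p = 0.0121). These comparisons take T2D and Con libraries together. Non-classical monocytes and neutrophils had means of 449 and 121 CPM in T2D. In Con the means were 106 and 70.1 CPM, and the libraries of these classes overlapped. The 4 lymphocyte classes lay between 1.52 and 2.30 CPM and did not separate from each other, with adjusted p from 0.365 to 0.933 for neighbours in that order. No Hmox1 UMI was found in platelets, where 3 UMIs, the limit that a count of 0 allows, correspond to 27.5 to 50.6 CPM in a library. Non-classical monocytes were 1.86% of the kept cells and held 38.6% of all 3174 Hmox1 UMIs. Kept cells with no class, 20.9% of the kept cells, held 39.7% of them. The depth of a cell matters for shares of cells, so cells were also thinned to 500 UMIs each: 0% to 13.6% of non-classical monocytes then had an Hmox1 UMI, against 0.0248% to 0.219% of B cells. Without thinning, the share of non-classical monocytes with an Hmox1 UMI was 32.6%, 43.5% and 36.9% in the T2D libraries and 29.1%, 20.7% and 29.5% in the Con libraries. Nqo1, the quinone reductase that is a standard readout of NRF2 in other tissues, was barely measured: all kept cells together held 76 Nqo1 UMIs. Its highest mean was 16.7 CPM in platelets, from 9 UMIs, classical monocytes had none, and no class had enough counts for a test.

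Gclc and Gclm encode the catalytic and the modifier subunit of glutamate-cysteine ligase, which makes the first and rate-limiting step of glutathione synthesis. Gclm (chr3:122245557-122270732, plus strand) averaged 2131 ± 344 CPM in platelets and 58.7 ± 20.7 CPM in neutrophils, the next class (SD, n = 6). Platelets exceeded neutrophils by 5.08 ± 0.16 on the log2 scale (given in the table of pairs as neutrophils minus platelets, -5.08; adjusted p = 1.3e-32). In the other 6 classes Gclm lay between 18.3 and 45.1 CPM. Among platelets thinned to 500 UMIs, 46.5% to 71.9% had a Gclm UMI in each library, whereas at most 1.36% of B cells did. Platelets made up 0.998% of kept cells and 0.319% of their UMIs, yet held 17.6% of all 6012 Gclm UMIs. The partner subunit did not follow to the same extent: Gclc averaged 159 ± 68.0 CPM in platelets and 68.1 ± 3.23 CPM in CD8 T cells, a difference (CD8 T cells minus platelets) of -1.70 ± 0.23 (adjusted p = 1.2e-09). CD8 and CD4 T cells did not separate for Gclc (adjusted p = 0.691), B cells were lower than CD4 T cells (-0.44 ± 0.09, adjusted p = 5.0e-06), and the lowest mean was that of neutrophils at 9.87 CPM.

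Srxn1, sulfiredoxin, repairs overoxidised peroxiredoxins. Platelets held 37.9% of its 705 UMIs. Srxn1 averaged 546 ± 146 CPM in platelets and 14.4 ± 7.74 CPM in NK cells, the next class by CPM (SD, n = 6), with a fitted difference (NK cells minus platelets) of -5.94 ± 0.26 (adjusted p = 1.6e-35). Neutrophils followed NK cells by CPM at 12.8, although the fitted difference put neutrophils 0.71 ± 0.44 above NK cells (adjusted p = 0.143). B, CD4 T and CD8 T cells had 0.390, 0.625 and 0.367 CPM of Srxn1. Leukocytes can carry platelets on their surface, and classical monocytes without any platelet marker UMI had 2.17 CPM of Srxn1 against 8.29 CPM over all classical monocytes. In neutrophils the same restriction gave 5.25 CPM against 12.8 CPM, and in NK cells 13.6 CPM against 14.4 CPM. Gclm in neutrophils stood at 54.3 CPM without such cells and at 58.7 CPM with them.

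**Figure D2:**
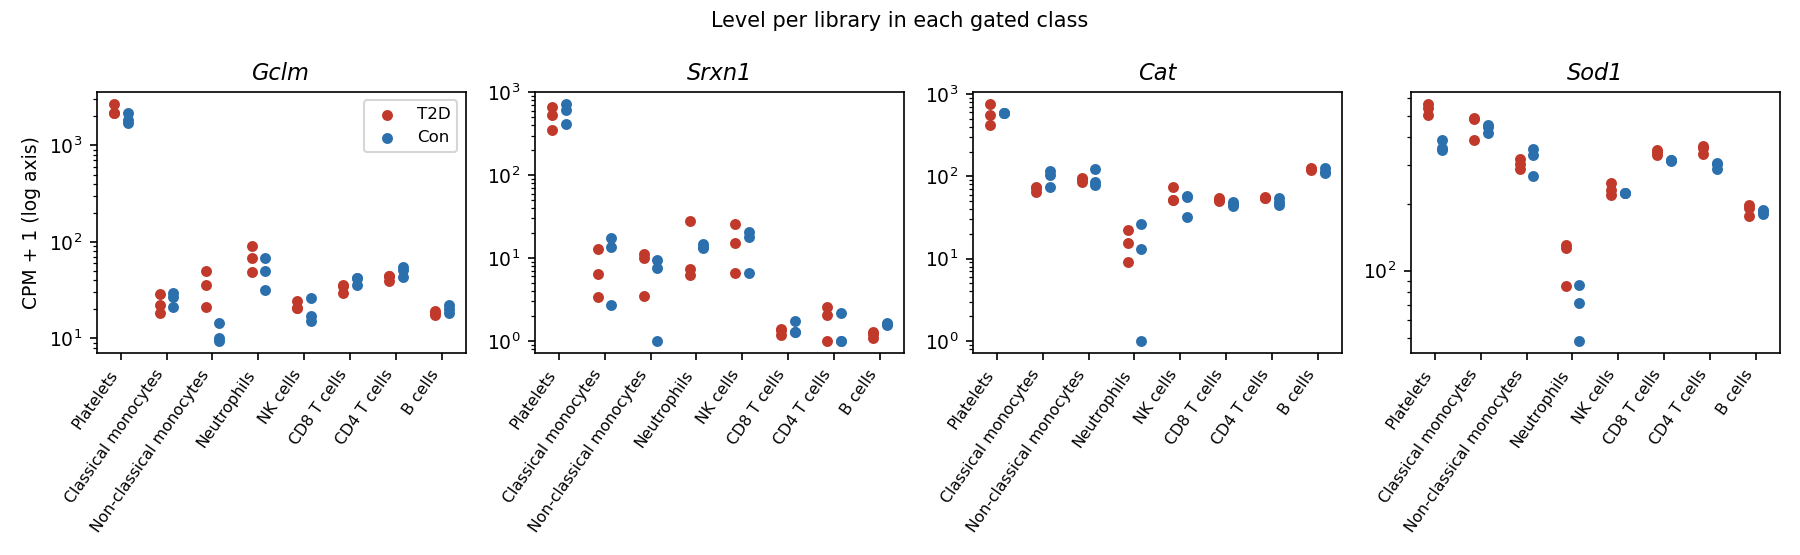
CPM + 1 (log axis) of Gclm, Srxn1, Cat and Sod1 in each gated class, 1 point per library, T2D in red at the left and Con in blue at the right of each class. Every platelet library lay above every library of the other 7 classes for Gclm (1706 CPM or more), Srxn1 (346 CPM or more) and Cat (422 CPM or more).

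Prdx1, a peroxiredoxin of the cytosol and a substrate of both thioredoxin and sulfiredoxin, followed another order. It averaged 477 ± 45.1 CPM in classical and 414 ± 61.9 CPM in non-classical monocytes (SD, n = 6), which did not separate (0.17 ± 0.08, adjusted p = 0.0878). Non-classical monocytes exceeded NK cells, at 212 CPM, by 1.26 ± 0.09 (adjusted p = 2.7e-21), and Prdx1 was lowest in platelets at 53.8 CPM and in neutrophils at 24.2 CPM. Txnrd1, the cytosolic thioredoxin reductase, was highest by CPM in NK cells at 137 ± 21.1, followed by non-classical monocytes at 93.1 and neutrophils at 88.4. NK cells and non-classical monocytes did not separate (non-classical monocytes minus NK cells -0.25 ± 0.19, adjusted p = 0.278), and the test placed neutrophils above non-classical monocytes (non-classical monocytes minus neutrophils -0.54 ± 0.23, adjusted p = 0.0388) against the order by CPM. The fitted difference also put neutrophils 0.29 ± 0.23 above NK cells, without separating them (adjusted p = 0.256). B cells, at 36.4 CPM, and platelets, at 26.4 CPM from 13 UMIs, had the lowest Txnrd1 levels and did not separate (B cells minus platelets -0.08 ± 0.67, adjusted p = 0.919).

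Sod1, the cytosolic copper-zinc superoxide dismutase, was high in every class but neutrophils. Its mean was 449 ± 97.2 CPM in platelets, 445 ± 37.8 CPM in classical monocytes, 327 and 324 CPM in CD8 and CD4 T cells, 309 CPM in non-classical monocytes, 227 CPM in NK cells, 186 CPM in B cells and 90.5 CPM in neutrophils (n = 6). CD8 T cells, CD4 T cells and non-classical monocytes did not separate (adjusted p = 0.583 and 0.487 for neighbours), nor did NK and B cells (0.105). Sod2, the manganese enzyme of the mitochondrial matrix, averaged 201 ± 78.6 CPM in classical and 185 ± 20.8 CPM in non-classical monocytes, which did not separate (0.07 ± 0.15, adjusted p = 0.755). That comparison takes T2D and Con libraries together, and the order of the means differed between the groups. Classical and non-classical monocytes had 268 and 197 CPM in Con, and 134 and 173 CPM in T2D. Neutrophils followed at 99.3 CPM, the 4 lymphocyte classes lay between 60.8 and 83.5 CPM without separating from their neighbours, and platelets stood at 16.8 CPM from 9 UMIs. Cat, catalase, averaged 588 ± 109 CPM in platelets and 119 ± 6.55 CPM in B cells, a difference (B cells minus platelets) of -2.88 ± 0.13 (adjusted p = 2.5e-34). B cells exceeded non-classical monocytes, at 92.6 CPM, by 0.27 ± 0.11 (adjusted p = 0.0208), and neutrophils had the least Cat, 13.6 CPM from 33 UMIs. Sod1 overlaps Scaf4, and Txnrd1 overlaps Eid3, in the annotation, and the sources used here do not say whether reads were counted by strand.

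The antioxidant response element, to which NRF2 with a small MAF protein binds, has a core of TGACNNNGC or TGAGNNNGC. RefSeq promoter windows of GRCm38.p6, 250 bases before to 50 after a gene's start, were searched for this core on both strands, and 9115 of 32817 windows of all genes, 27.8%, held it. Of the 10 members 8 had a window, 10 windows in all, and 5 members had a match: Gclm, Txnrd1, Srxn1, Prdx1 and Sod1. Srxn1 had 3 matches and Prdx1 had 2, and in each gene 1 of them overlapped the AP-1 motif TGACTCA, which 5.2% of all windows held. The windows of Nqo1, Sod2 and Cat held no match, and Hmox1 and Gclc are named only. The windows of Gclm, Srxn1 and Cat are printed because these genes stood highest in platelets, and those of Prdx1 and Txnrd1 because these genes stood higher in the cells richest in Hmox1. They run 5′ to 3′ along the gene, and capitals mark the matches. The windows are Gclm chr3:122245307-122245606 (plus strand), Srxn1 chr2:152105274-152105573 (plus strand), Cat chr2:103485104-103485403 (minus strand), Prdx1 chr4:116685349-116685648 (plus strand) and Txnrd1, the second of its 3 starts, chr10:82858956-82859255 (plus strand).
Gclm: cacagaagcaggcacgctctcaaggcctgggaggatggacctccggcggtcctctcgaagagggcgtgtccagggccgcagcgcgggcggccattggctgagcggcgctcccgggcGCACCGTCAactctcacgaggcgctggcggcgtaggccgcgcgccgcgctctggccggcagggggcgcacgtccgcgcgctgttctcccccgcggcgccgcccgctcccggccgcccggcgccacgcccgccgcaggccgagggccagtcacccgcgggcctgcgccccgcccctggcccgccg
Srxn1: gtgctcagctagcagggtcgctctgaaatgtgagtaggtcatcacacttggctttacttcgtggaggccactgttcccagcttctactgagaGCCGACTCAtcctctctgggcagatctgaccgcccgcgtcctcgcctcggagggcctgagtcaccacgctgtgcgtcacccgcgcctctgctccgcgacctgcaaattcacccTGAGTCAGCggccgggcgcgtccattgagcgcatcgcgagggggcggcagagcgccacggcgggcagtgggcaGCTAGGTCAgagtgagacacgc
Cat: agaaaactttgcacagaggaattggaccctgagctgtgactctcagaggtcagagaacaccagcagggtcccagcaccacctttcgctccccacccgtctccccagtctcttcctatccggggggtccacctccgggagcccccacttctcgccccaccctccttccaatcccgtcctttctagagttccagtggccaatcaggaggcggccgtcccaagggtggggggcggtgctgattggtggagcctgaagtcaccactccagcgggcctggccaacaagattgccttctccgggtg
Prdx1: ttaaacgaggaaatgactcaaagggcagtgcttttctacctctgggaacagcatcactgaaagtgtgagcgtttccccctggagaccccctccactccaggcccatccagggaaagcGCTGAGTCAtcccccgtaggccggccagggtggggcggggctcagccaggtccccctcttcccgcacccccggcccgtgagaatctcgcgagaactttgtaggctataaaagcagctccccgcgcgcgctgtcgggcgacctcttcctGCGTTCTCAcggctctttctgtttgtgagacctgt
Txnrd1: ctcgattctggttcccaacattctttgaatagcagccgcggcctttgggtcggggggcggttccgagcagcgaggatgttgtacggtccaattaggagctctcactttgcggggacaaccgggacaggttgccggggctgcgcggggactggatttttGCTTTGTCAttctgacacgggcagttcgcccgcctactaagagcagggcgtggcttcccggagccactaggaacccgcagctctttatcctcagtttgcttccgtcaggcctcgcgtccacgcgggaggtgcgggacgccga
Counted in bases before the gene's start, with negative values inside the gene, the matches lay at 134 in Gclm, at 158, 45 and -28 in Srxn1, at 133 and -15 in Prdx1 and at 92 in Txnrd1. Cat, which shared the high platelet level of Gclm and Srxn1, had no such letters in its window.

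Between T2D and Con blood, the changes that passed the test lay in the myeloid classes. Hmox1 rose in T2D non-classical monocytes, Sod2 fell in T2D classical monocytes and T2D neutrophils, and Txnrd1 fell in T2D neutrophils. These were 4 of 56 tested pairs of a member and a class (1 higher, 3 lower), with a further 24 pairs too low in counts for a test. In non-classical monocytes 1 of 8 tested members passed, where 0.726% of 6749 genes did, in classical monocytes 1 of 8, where 0.616% of 6329 genes did, and in neutrophils 2 of 6, where 2.95% of 4002 genes did. No member passed in B cells (8 tested, 1.41% of genes), CD4 T cells (7 tested, 5.79%), CD8 T cells (8 tested, 2.94%), NK cells (6 tested, 0.196%) or platelets (5 tested, 0% of 1099 genes; 89 genes at an unadjusted p under 0.05 in edgeR, and DESeq2 called 0 as well). The median log2 fold change of the tested members was 0.14 in non-classical monocytes, 0.04 in classical monocytes and 0.26 in neutrophils, against -0.0025, 0.0025 and 0.0056 over all genes. The T2D and Con libraries did not overlap, in either direction, for 2 of 8 members in classical monocytes (12.4% of genes), 2 of 8 in non-classical monocytes (14.2%), 2 of 6 in neutrophils (17.7%), 1 of 8 in B cells (19.5%), 3 of 7 in CD4 T cells (24.5%), 4 of 8 in CD8 T cells (22.5%), 1 of 6 in NK cells (13.6%) and 1 of 5 in platelets (14.5%). With 3 libraries a group, the smallest exact two-sided permutation p for a single value is 0.1, from 20 label assignments, and it was reached by every member whose groups did not overlap.

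**Figure D3:**
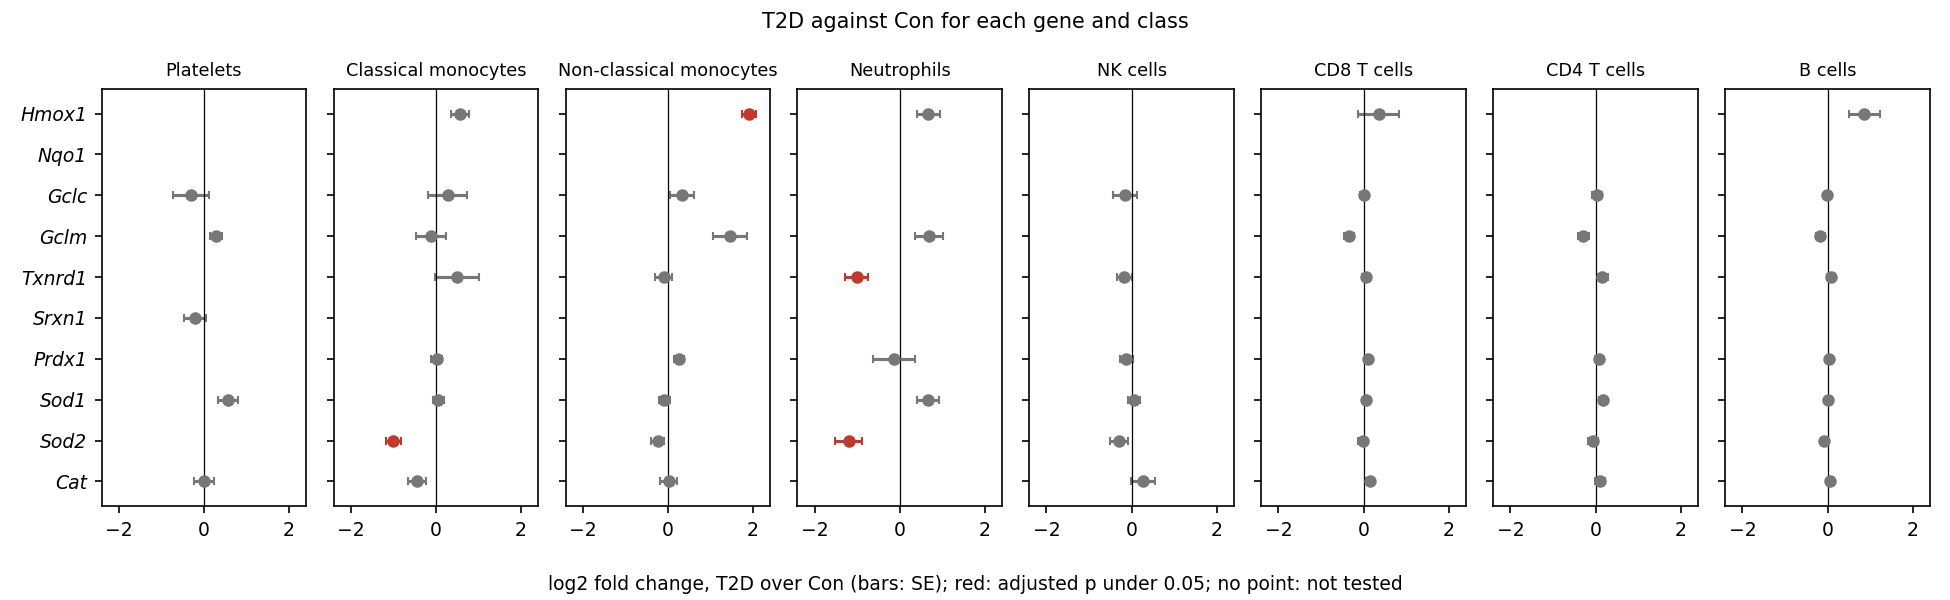
Log2 fold change of T2D over Con (points) with its SE (bars) for each gene in each gated class, from edgeR's quasi-likelihood test. Red points passed an adjusted p under 0.05: Hmox1 in non-classical monocytes at 1.91, Sod2 in classical monocytes at -0.998, and Sod2 and Txnrd1 in neutrophils at -1.20 and -1.01. A missing point was too low for a test.

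Hmox1 stood at 498, 373 and 477 CPM in the non-classical monocytes of the T2D libraries (202, 332 and 476 UMIs), against 142, 72.3 and 106 CPM in those of the Con libraries (149, 16 and 50 UMIs). All 3 T2D libraries lay above all 3 Con libraries. The means were 449 ± 67.2 CPM in T2D and 106 ± 34.7 CPM in Con (SD, n = 3 each), a 3.77-fold rise, 1.91 ± 0.16 on the log2 scale (SE; edgeR adjusted p = 6.2e-09). In classical monocytes Hmox1 had 114, 105 and 77.8 CPM in T2D and 76.1, 51.3 and 75.3 CPM in Con. The T2D libraries again lay above the Con libraries, the lowest T2D library by a small margin, and the log2 difference of 0.57 ± 0.22 did not pass (adjusted p = 0.406). In neutrophils Hmox1 had 152, 130 and 80.9 CPM in T2D and 65.9, 83.6 and 60.9 CPM in Con, with overlap between the groups and a difference of 0.67 ± 0.27 (adjusted p = 0.266). The T2D effect on Hmox1 was larger in non-classical than in classical monocytes by 1.40 ± 0.28 on the log2 scale (adjusted p = 0.0245, where 0.0338% of 8882 genes passed), a comparison added after the values were seen. That call was lost with a stricter gate (0.0929) and when any 1 of Con 1, Con 2, Con 3 or T2D 3 was left out (0.0581 to 0.270). Against B cells, where Hmox1 rested on 100 UMIs, the difference was 1.12 ± 0.42 (adjusted p = 0.428, where 0.158% of genes passed).

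Markers of red cells were also higher in T2D non-classical monocytes. The summed erythroid list, of which 4 to 7 of 7 markers had a UMI, stood at 296, 2643 and 256 CPM in T2D and at 113, 140 and 129 CPM in Con. T2D 2, highest by this list, had the lowest Hmox1 level of the 3 T2D libraries. The 4 globin genes of the list had 282 to 1002 UMIs each in T2D and 16 to 92 in Con, while Alas2 and Slc4a1, markers of red cell precursors and membrane, had 3 and 1 UMIs in T2D and 0 in each Con library. The summed platelet list was lower in T2D, 49.3, 46.0 and 15.02 CPM, than in Con, 69.4, 72.3 and 71.8 CPM, with Gp9 and Gp1bb at 0 in all 3 T2D libraries. The part of these transcripts in the Hmox1 result was not tested. When only cells without a platelet marker UMI were summed, Hmox1 had 220, 396 and 496 CPM in T2D and 139, 36.6 and 119 CPM in Con, and the difference of 1.72 ± 0.43 no longer passed (adjusted p = 0.328). Under the other 14 alternatives the call was kept, at 1.07 to 2.25 on the log2 scale. The lowest of these values comes from leaving out the 5 cells richest in Hmox1 of every library, an alternative added after the values were seen that removes cells by the measured value itself and is given as a value only.

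**Figure D4:**
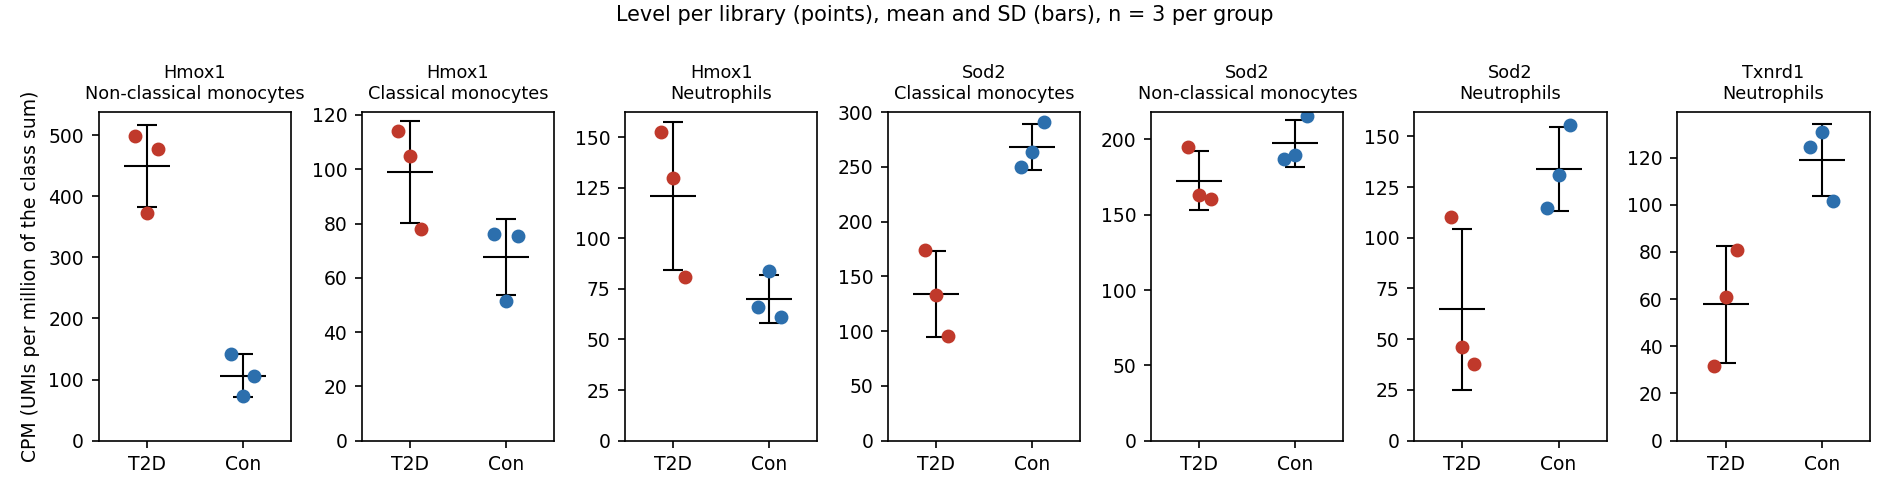
CPM per library (points) with mean and SD (bars) for Hmox1, Sod2 and Txnrd1 in the myeloid classes, T2D at the left and Con at the right, n = 3 libraries per group, each panel on its own axis from 0. In the panels of Hmox1 in non-classical monocytes, Sod2 in classical monocytes and Sod2 and Txnrd1 in neutrophils the groups do not overlap and the change passed the test.

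Most Hmox1 UMIs of the T2D non-classical monocytes came from few cells. A cut of 10 Hmox1 UMIs, chosen after the values were seen, was reached by 4 of 95, 6 of 191 and 7 of 206 non-classical monocytes in the T2D libraries, and by 1 of 220, 0 of 58 and 0 of 112 in the Con libraries. Those cells were 17 of 492 T2D cells, 3.46%, and 1 of 390 Con cells, 0.256%. They held 79.7%, 55.4% and 73.1% of the Hmox1 UMIs of the class in the T2D libraries and 25.5% in Con 1. The highest single cell had 62, 78 and 99 Hmox1 UMIs in the T2D libraries and 38, 3 and 6 in the Con libraries. In the non-classical monocytes under the cut, Hmox1 stood at 107, 171 and 136 CPM in T2D and 106, 72.3 and 106 CPM in Con, so the groups still did not overlap, by less than 1 CPM. Pooled over the libraries of a group, those cells had 145 CPM in T2D and 102 CPM in Con. Such cells were rare elsewhere: 2 T2D and 0 Con classical monocytes, no neutrophil and no lymphocyte or platelet reached the cut. Among kept cells with no class it was reached by 8 of 5656 in T2D, 0.141%, and by 6 of 4269 in Con, 0.141%.

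**Figure D5:**
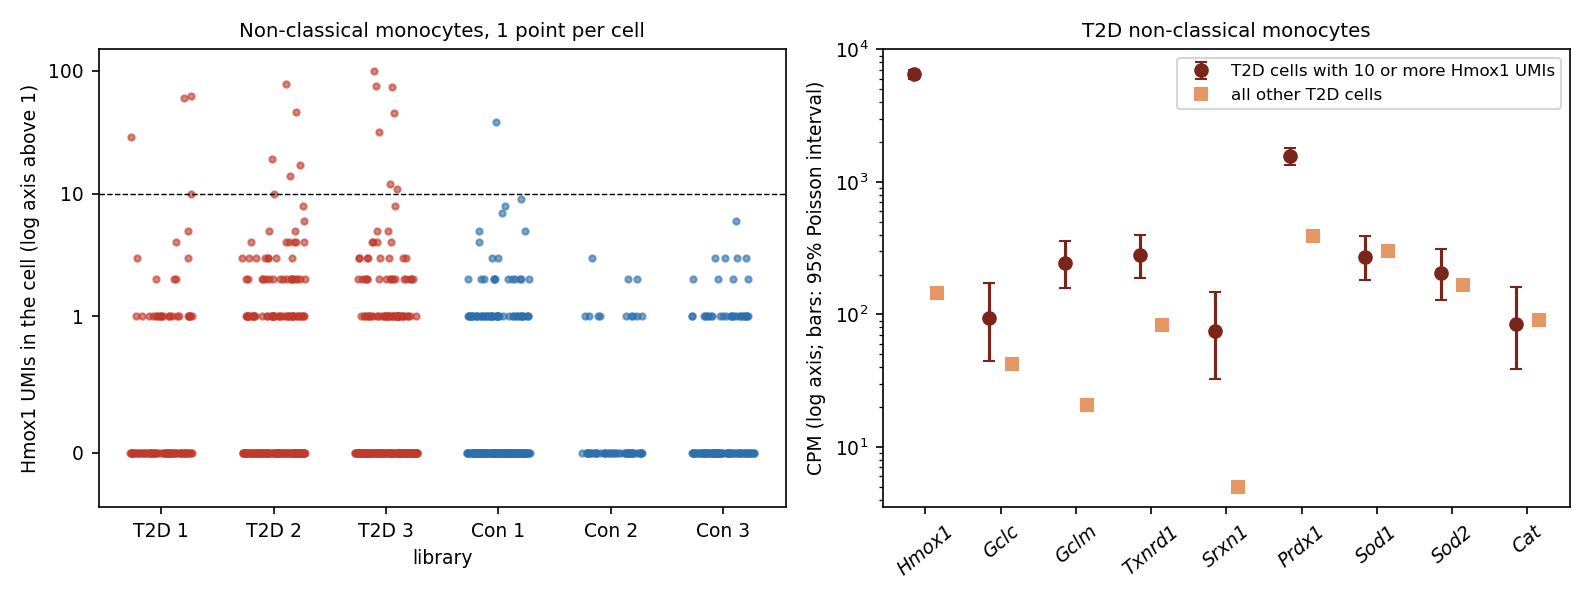
Left, Hmox1 UMIs per cell (log axis above 1) in the non-classical monocytes of each library, 1 point per cell, T2D libraries in red and Con libraries in blue, with the cut of 10 UMIs as a dashed line: 17 T2D cells and 1 Con cell lie on or above it. Right, CPM (log axis) of 9 of the genes summed over those 17 T2D cells (circles, bars give the exact 95% Poisson interval, counting error only) and over the other 475 T2D cells (squares).

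Other members of the family differed between these cells and the rest of the same class in the T2D libraries, given as a description, since the cells were picked by Hmox1. Prdx1 stood at 1563 CPM in the 17 cells and at 390 CPM in the other 475, a ratio of 4.01, and every one of the 17 had a Prdx1 UMI. Per library, Prdx1 was at 3320, 2256 and 651 CPM in the cells over the cut and at 341, 438 and 365 CPM in the rest. It was higher in all 3 libraries, least so in T2D 3. Over the whole class, the cell richest in Prdx1 had 60, 43 and 15 UMIs of it in the T2D libraries. That was 30%, 9.82% and 3.93% of the Prdx1 UMIs of the class. In T2D 1 the 5 cells richest in Prdx1 held 40.5% of these UMIs. The 4 cells over the cut could not have reached 3320 CPM without the cell of 60 UMIs. That cell is therefore among the 17, the T2D 1 value rests largely on it, and the ratio of 4.01 rests on it in part. For T2D 2 and T2D 3 it was not read whether the richest cell is among the 17, so those sums may rest on few cells too. Txnrd1 stood at 281 CPM against 83.6 CPM, and was higher in all 3 libraries as well, at 192, 421 and 251 CPM in the cells over the cut and 54.6, 84.4 and 94.8 CPM in the rest. Gclm stood at 243 against 20.6 CPM, but its 26 UMIs lay in 4 of the 17 cells and T2D 3 had none. Srxn1 stood at 74.9 against 5.03 CPM, from 8 UMIs in 3 cells. The dismutases and catalase did not share this: Sod1 stood at 271 against 300 CPM, Sod2 at 206 against 165 CPM and Cat at 84.3 against 90.0 CPM. Among the 15 genes with the highest ratio, of those with at least 10 UMIs in the 17 cells, were Slc7a11, the cystine transporter that feeds glutathione synthesis (93.6 against 6.86 CPM), Spic, a transcription factor of red pulp macrophages (206 against 24.7 CPM), and Slc48a1, a haem transporter (206 against 51.2 CPM). The gate asks for markers of the class, so the summed non-classical list, at 6300 against 6739 CPM, does not test what these cells are. The erythroid list was lower in them, 384 against 1229 CPM, and the platelet list was at 46.8 against 32.5 CPM. Their median depth was 5872 UMIs against 4260, their median mitochondrial share 1.99% against 2.11%, and their highest doublet score 0.0902 against 0.166.

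Gclm was the other member that stood higher in T2D non-classical monocytes in every library. It had 49.3, 34.8 and 20.03 CPM in T2D (20, 31 and 20 UMIs) and 13.3, 9.04 and 8.45 CPM in Con (14, 2 and 4 UMIs). The cell richest in Gclm held 9, 8 and 3 of these UMIs in T2D and 2, 1 and 1 in Con. Of the T2D UMIs, 26 lay in 4 of the cells over the Hmox1 cut. The groups did not overlap, and the difference of 1.46 ± 0.40 did not pass (adjusted p = 0.0966). It passed only under 3 alternatives, with no filter on low counts (1.48, adjusted p = 0.0341), with the library number as a block (1.71, 0.00963) and without T2D 3 (1.82, 0.0308). The difference between this effect and the one in B cells was 1.57 ± 0.39 (adjusted p = 0.0584). In B, CD4 T and CD8 T cells Gclm had fold changes of -0.18, -0.29 and -0.33 on the log2 scale (adjusted p = 0.477, 0.233 and 0.125). In platelets, its main site, Gclm had 2165, 2182 and 2701 CPM in T2D and 1706, 2182 and 1849 CPM in Con. The groups overlapped, T2D 2 and Con 2 being nearly equal, and the difference of 0.29 ± 0.14 did not pass (adjusted p = 0.613). Gclc passed in no class, with log2 differences from -0.30 in platelets to 0.33 in non-classical monocytes.

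Sod2 stood at 174, 133 and 95.4 CPM in the classical monocytes of the T2D libraries (73, 100 and 49 UMIs), against 250, 264 and 291 CPM in those of the Con libraries (141, 154 and 143 UMIs). All T2D libraries lay below all Con libraries. The means were 134 ± 39.2 CPM in T2D and 268 ± 21.0 CPM in Con (SD, n = 3 each), and the log2 difference was -0.998 ± 0.173 (adjusted p = 0.00274). This call was kept under all 15 alternatives run for it, at -1.33 to -0.79 with adjusted p up to 0.0321, leaving out each library and cells with a platelet marker UMI among them. The 15 include leaving out the 5 cells richest in Sod2 of every library, which removes cells by the measured value itself and counts as a value only. The summed erythroid list differed between the groups here too, at 326, 637 and 263 CPM in T2D and 177, 139 and 144 CPM in Con (4 or 5 of 7 markers with a UMI, Alas2 at 0 throughout), and its part in the Sod2 result was not tested. The T2D effect on Sod2 in classical monocytes was lower than that in B cells (classical monocytes minus B cells -0.93 ± 0.17 on the log2 scale, adjusted p = 0.000672, where 0.315% of genes passed). It was also lower than those in CD4 T cells (CD4 T cells minus classical monocytes 0.97 ± 0.20, adjusted p = 0.00122, where 0.901% of genes passed) and CD8 T cells (0.99 ± 0.18, adjusted p = 0.000677, where 0.372% passed). All 3 differences lost their call without T2D 3, with adjusted p of 0.0701, 0.162 and 0.0718. In non-classical monocytes Sod2 had 195, 163 and 160 CPM in T2D and 187, 190 and 215 CPM in Con. These groups overlapped (-0.23 ± 0.15, adjusted p = 0.718), and the effect was not shown to differ from that in classical monocytes (0.78 ± 0.21, adjusted p = 0.200).

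Both Sod2 and Txnrd1 fell in T2D neutrophils. Sod2 stood at 110, 46.1 and 37.8 CPM in T2D (21, 22 and 14 UMIs) and at 115, 131 and 156 CPM in Con (47, 72 and 23 UMIs). The T2D libraries lay below the Con libraries, T2D 1 only just. The difference was -1.20 ± 0.31 (adjusted p = 0.0357), and the T2D effect was lower than that in B cells (-1.13 ± 0.26, adjusted p = 0.00863, where 1.23% of genes passed). That difference was lost without Con 2, T2D 2 or T2D 3 (0.115, 0.153 and 0.130). Txnrd1 stood at 31.5, 60.8 and 80.9 CPM in T2D (6, 29 and 30 UMIs) and at 124, 131 and 102 CPM in Con (51, 72 and 15 UMIs). The groups did not overlap, and the difference was -1.01 ± 0.27 (adjusted p = 0.0419). Each of these neutrophil calls held under 7 of 15 alternatives and was lost under 8. A limit of 10% on the mitochondrial share is among the 7 but left the neutrophil fit unchanged, so it could not have lost a call. For Sod2 the 7 also include leaving out the 5 cells richest in it per library, which removes cells by the measured value itself. Sod2 lost it in DESeq2 (adjusted p = 0.0695), with the library number as a block (0.0543), in cells without a platelet marker UMI (0.428), and without Con 1, Con 2, Con 3, T2D 2 or T2D 3 (0.0674 to 0.215). Txnrd1 lost it in DESeq2 (0.105), without TMM scaling (0.0579), in cells without a platelet marker UMI (0.215), without the 5 richest cells per library (0.172), and without Con 1, Con 2, T2D 1 or T2D 2 (0.113 to 0.252). The direction was the same in all of them. Sod1 and Gclm had higher means in T2D neutrophils without passing: Sod1 had 84.1, 126 and 129 CPM in T2D and 70.8, 85.4 and 47.4 CPM in Con (0.65 ± 0.26, adjusted p = 0.241), and Gclm had 0.69 ± 0.33 (adjusted p = 0.379). The summed neutrophil list was at 98312, 88252 and 78887 CPM in T2D neutrophils and 68789, 65867 and 79553 CPM in Con neutrophils, with 6 of 6 markers in each library. The platelet list was at 636, 585 and 302 CPM in T2D and 415, 405 and 366 CPM in Con (6 of 7 markers in each library, Gp1bb at 0), and the erythroid list at 357, 803 and 326 CPM in T2D and 1714, 225 and 223 CPM in Con (4 to 6 of 7 markers). Their part in the neutrophil results was not tested.

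No member passed in lymphocytes or platelets. Hmox1 in B cells had 1.31, 2.13 and 2.48 CPM in T2D (15, 24 and 24 UMIs) and 1.37, 1.21 and 0.622 CPM in Con (16, 13 and 8 UMIs). These groups overlapped between T2D 1 and Con 1, and the difference of 0.87 ± 0.37 did not pass (adjusted p = 0.283). Sod1 in platelets had 563, 504 and 540 CPM in T2D and 385, 348 and 356 CPM in Con. The groups did not overlap, and the difference of 0.57 ± 0.23 did not pass (adjusted p = 0.509). Markers of other cells were also read in these platelets. The summed endothelial list stood at 1337, 1479 and 1333 CPM in T2D and 1046, 1054 and 982 CPM in Con, without overlap, with UMIs of 2 of its 3 markers, mostly of Pecam1, and Cdh5 at 0. The erythroid list stood at 2320, 21001 and 1097 CPM in T2D and 1211, 1174 and 1010 CPM in Con (4 or 5 of 7 markers), with overlap. Their part in the Sod1 values was not tested. In CD4 T cells Sod1 had 355, 365 and 333 CPM in T2D and 287, 302 and 305 CPM in Con. The T2D libraries lay above the Con libraries by 0.16 ± 0.07 (adjusted p = 0.217), and this passed only without TMM scaling (0.24, adjusted p = 0.0449). By CPM, Txnrd1 and Prdx1 also stood higher in every T2D library of CD4 T cells, and Prdx1, Sod1 and Cat in every T2D library of CD8 T cells. After TMM scaling the log2 differences were 0.15 ± 0.13 and 0.08 ± 0.08 in CD4 T cells. In CD8 T cells they were 0.11 ± 0.07, 0.06 ± 0.06 and 0.14 ± 0.10, and none passed. Without that scaling the median over all genes was itself 0.08 in CD4 and 0.05 in CD8 T cells. In CD8 T cells Gclm stood lower in every T2D library, at 33.9, 28.5 and 34.8 CPM against 34.8, 41.4 and 41.3 CPM in Con, T2D 3 and Con 1 being nearly equal. No member's T2D effect in CD4 T cells, platelets or any class besides classical monocytes and neutrophils was shown to differ from that in B cells (0 of 9 each, where 1.1% of genes passed for CD4 T cells, 0.248% for CD8 T cells, 0.113% for NK cells and 0.0225% for platelets), and none in platelets from that in classical monocytes (0 of 9, 0.045% of genes). Prdx1 passed in no class, and its differences ran from -0.13 in neutrophils to 0.26 in non-classical monocytes. Cat ran from -0.44 in classical monocytes (adjusted p = 0.587) to 0.27 in NK cells, and Srxn1, testable only in platelets, had 530, 346 and 658 CPM in T2D and 413, 605 and 726 CPM in Con (-0.21 ± 0.25, adjusted p = 0.858).

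Summed over all kept cells, as a bulk blood sample would be, no member passed, where 4.22% of 13641 genes did; DESeq2 and the test without a filter on low counts each called 1, Sod2. The groups did not overlap for 4 of the 10 members, where they did not for 27.6% of genes. In such sums, fewer cells of a type and less RNA per cell cannot be told apart. Sod2 had 75.7, 72.2 and 75.1 CPM in T2D and 83.8, 92.1 and 81.7 CPM in Con. Every T2D library was lower, by -0.24 ± 0.06 on the log2 scale (adjusted p = 0.0554; 0.0321 in DESeq2 and 0.0362 without the filter). Hmox1 had 18.4, 31.5 and 29.4 CPM in T2D and 17.2, 14.2 and 7.54 CPM in Con, which did not overlap by a small margin between T2D 1 and Con 1 (0.99 ± 0.38, adjusted p = 0.237). Sod1 had 271, 281 and 269 CPM in T2D against 244, 242 and 239 CPM in Con, and Txnrd1 56.0, 57.1 and 55.8 CPM in T2D against 50.2, 50.5 and 48.7 CPM in Con. Both lay higher in every T2D library, without passing (adjusted p = 0.151 and 0.171). The make-up of the kept cells differed as well: B cells, whose Sod1 and Txnrd1 levels were low, were 46.4%, 43% and 39.7% of them in T2D and 53.7%, 53.9% and 55.4% in Con. CD8 T cells, in which Txnrd1 averaged 64.6 CPM, were 14.8%, 14.8% and 14.6% in T2D and 9.58%, 11% and 11.4% in Con. The groups did not overlap in either share, and the part of this make-up in the summed values was not tested.

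Genes around the family were read from 6 lists of 59 genes in all. Of 357 tested pairs of a gene and a class, 14 passed, 3.92%, of which 12 were lower and 2 higher in T2D. Of all genes, 2.21% of 55505 such pairs passed. The NRF2 control list, with NRF2, its inhibitor complex and its small MAF partners, gave 9 of the lower calls in 56 pairs and no higher one, where 1.2% of all pairs passed lower. Of these 9, 4 came from CD4 T cells, where 3% of 9440 genes passed lower. Maff, a small MAF protein, fell in T2D in 4 classes: non-classical monocytes (4.93, 11.2 and 6.01 CPM in T2D, 22.8, 63.2 and 21.1 CPM in Con; -1.88 ± 0.46, adjusted p = 0.0349), neutrophils (36.8, 39.8 and 32.4 CPM in T2D, 127, 127 and 54.1 CPM in Con; -1.64 ± 0.31, adjusted p = 0.00239), CD4 T cells (-0.80 ± 0.14, adjusted p = 0.00227) and CD8 T cells (-0.59 ± 0.12, adjusted p = 0.00438). The groups did not overlap in any of the 4. The call held under every alternative in CD4 T cells, was lost without Con 2 in neutrophils (0.0525) and without Con 3 in CD8 T cells (0.0615), and in non-classical monocytes was lost when any 1 library other than Con 3 was left out (0.0534 to 0.275). Mafk, Mafg and Cul3, the last a subunit of the ligase that KEAP1 works with, fell in T2D CD4 T cells by 0.80, 0.52 and 0.26 on the log2 scale (adjusted p = 0.0277, 0.0451 and 0.0280), and each lost the call under 7 or more alternatives. The erythroid, NK and regulatory T lists were higher in T2D CD4 T cells, without overlap between the groups. The summed erythroid list stood at 1496, 1939 and 646 CPM in T2D (6 or 7 of 7 markers with a UMI) and 118, 179 and 402 CPM in Con (4 to 6 of 7). The NK list stood at 168, 60.1 and 66.0 CPM in T2D (6 of 6 markers) and 31.4, 37.6 and 49.9 CPM in Con (5 or 6 of 6), and the regulatory T list at 63.3, 75.0 and 128 CPM in T2D and 22.2, 51.5 and 61.1 CPM in Con (3 or 4 of 4). In T2D, Gzma had the most UMIs of the NK list, 557 against 67 in Con. Ctla4 had the most of the regulatory T list in each group, 613 in T2D and 231 in Con. Foxp3, the defining gene of regulatory T cells, had 9 UMIs in T2D (0 to 1.54 CPM) and 5 in Con (0 to 1.15 CPM). The part of these lists in the results of CD4 T cells, those of Txn1 among them, was not tested.

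In neutrophils 4 genes of these lists passed besides Maff, all lower in T2D, where 2.02% of 4002 genes passed lower. Slc7a11, the cystine transporter, stood at 189, 176 and 256 CPM in T2D neutrophils and 476, 523 and 325 CPM in Con neutrophils. It fell by 1.15 ± 0.19 on the log2 scale in T2D (adjusted p = 0.000523). Sqstm1, which encodes p62, an autophagy adaptor that binds KEAP1, stood at 273, 212 and 221 CPM in T2D and 378, 480 and 433 CPM in Con (-0.92 ± 0.17, adjusted p = 0.00169). In both genes all T2D libraries lay below all Con libraries, and both calls held under all 14 alternatives run for them. Nfe2l2, the gene of NRF2 itself, stood at 510, 453 and 437 CPM in T2D and 727, 638 and 731 CPM in Con (-0.60 ± 0.15, adjusted p = 0.0217), and Fth1, the ferritin heavy chain, at 6784, 7307 and 8400 CPM in T2D and 11243, 11682 and 9625 CPM in Con (-0.55 ± 0.14, adjusted p = 0.0273). Those calls were lost under 5 and 6 alternatives, among them cells without a platelet marker UMI (0.204 and 0.195). In CD4 T cells Txn1, thioredoxin, had 200, 174 and 153 CPM in T2D and 140, 117 and 129 CPM in Con (0.37 ± 0.10, adjusted p = 0.0286; lost under 6 alternatives). In CD8 T cells Ncf1, a cytosolic subunit of the phagocyte oxidase, had 53.8, 59.1 and 58.1 CPM in T2D and 43.9, 43.1 and 35.7 CPM in Con (0.43 ± 0.10, adjusted p = 0.0178; lost under 4), and Prdx6 had -0.22 ± 0.06 (adjusted p = 0.0491; lost under 13). The summed NK list was higher in T2D CD8 T cells as well, at 458, 300.2 and 221 CPM in T2D and 172, 124 and 96.8 CPM in Con, with Gzma its most abundant gene. The non-classical monocyte list stood at 78.0, 60.9 and 61.6 CPM in T2D and 48.6, 20.7 and 26.8 CPM in Con, and the classical monocyte list at 1859, 1727 and 1746 CPM in T2D and 1359, 1440 and 1440 CPM in Con. Each of these 3 lists had UMIs of 6 of 6 markers in every T2D library and 5 or 6 in each Con library. In each group Cx3cr1 had the most UMIs of the non-classical list and Ly6c2 of the classical list. Their part in the results of CD8 T cells was not tested. None of the 48 pairs of the NADPH supply list passed.

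Genes like each member were ranked by Pearson's r of log2(CPM + 1) over the 48 sums of 8 classes in 6 libraries, among 8171 genes with a mean of at least 10 CPM, as a description: the sums of a class share their cell type and those of a library their depth. Hmox1 went most closely with Sirpb1c (r = 0.971), Rin2 (0.967) and Nadk (0.962). Gclm went with Kif2a (0.963), Gata1 (0.954), a transcription factor of megakaryocytes and red cells, and Max (0.952). Srxn1 went with Rtn3 (0.943) and Tmsb4x (0.933), Prdx1 with Dr1 (0.953), Ddost (0.943) and Bscl2 (0.910), and Cat with Fyco1 (0.908) and Xpnpep1 (0.906). Sod2 went with Diaph2 (0.921), Map2k1 (0.919) and Sf3b6 (0.909), Sod1 with Bag3 (0.900), Cox6c (0.877) and Fkbp1a (0.852), Txnrd1 with Lfng (0.910), Cyth4 (0.899) and Sra1 (0.864), and Gclc with R3hdm1 (0.882), Tlk1 (0.857) and Nucks1 (0.846). Nqo1 was under the minimum level. Between members, r was 0.79 for Gclm with Srxn1 and -0.77 for Gclm with Sod2.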

How the data were processed

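Raw UMI counts per gene and cell were deposited as 6 matrices by the authors, who named CASAVA 1.8, UMI-tools, Seurat and mm10, per the submitters' processing notes (the aligner and annotation are not given in these sources). Barcodes under 200 genes or over 20% mitochondrial UMIs were dropped. Simulated doublets (2000 variable genes, 30 components, expected rate 0.06) scored each cell, and 1644 cells over 0.25, 3.01% to 3.70% of a library, were left out. A class needed 4 markers of its list (3 for NK cells, 2 for eosinophils), fewer than 3 of other lineages and, between the monocyte lists, a lead of 2. For B cells, T cells, NK cells and neutrophils the limit on the classical monocyte list was fewer than 4 instead. None of the 10 genes is a marker. Counts were summed per library and class and tested with edgeR 4.0.16 in R 4.3.3 (quasi-likelihood, robust, TMM, filterByExpr, Benjamini-Hochberg over all genes), with DESeq2 1.42.0 as an alternative; SE is the log2 fold change divided by the square root of F. Effects were compared between classes in a fit with library, class and T2D by class as terms. Gating and sums used Python 3.11.15 with scipy 1.17.1 and scikit-learn 1.9.0. The scripts for the tests were tested on simulated data. Intervals and the limit of 3 UMIs cover counting error only.

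The members, gene lists and tests were chosen with earlier results of these data known. Named are all 10 members in every fitted class, list genes past an adjusted p of 0.05 (at most 4 per list and class) and, of the 3 genes most like each member, those given (some are not reported here); genes of the cells richest in Hmox1, with that threshold, and the details of marker lists were chosen after values were seen. Alternatives were another normalisation, no filter, other gates and cell filters, the library number as a block, and leaving out each library. Eosinophils (10 to 45 cells per library) and regulatory T cells (9 to 88) were too few to be fitted.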

Additional observations from a re-analysis of the deposited data

Results flagged for a closer look

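In 5 comparisons of a member, the T2D effect differed between 2 cell classes by edgeR's quasi-likelihood test of the difference itself. The T2D effect on Sod2, on the log2 scale, was lower in classical monocytes than in B cells (-0.93 ± 0.17, adjusted p = 0.000672) and lower in neutrophils than in B cells (-1.13 ± 0.26, adjusted p = 0.00863). The neutrophil difference was lost without Con 2, T2D 2 or T2D 3 (adjusted p = 0.115, 0.153 and 0.130). Relative to classical monocytes, the Sod2 effect was higher in CD4 T cells (0.97 ± 0.20, adjusted p = 0.00122) and in CD8 T cells (0.99 ± 0.18, adjusted p = 0.000677); these share the classical monocyte sums with the first difference, and all 3 were lost without T2D 3. The Hmox1 effect was higher in non-classical than in classical monocytes (1.40 ± 0.28, adjusted p = 0.0245), a difference lost with a stricter gate (0.0929) and without Con 1, Con 2, Con 3 or T2D 3 (0.0581 to 0.270). The comparisons with classical monocytes were added after the values were seen.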

How the results depend on the processing

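Of the 4 called pairs of a member and a class, Sod2 in classical monocytes held under every alternative run. Hmox1 in non-classical monocytes held under all but 1, and both neutrophil calls under 7 of 15. The alternatives of these 4 pairs include leaving out the 5 richest cells per library, which removes cells by the measured value. They also include a mitochondrial limit that left the neutrophil fit unchanged. Called pairs over the classes numbered 4, against 2 in DESeq2, 1 in cells without a platelet marker UMI and 2 to 4 leaving out a library. Over all kept cells the called members numbered 0, against 1 in DESeq2, 1 without a filter on low counts and 0 to 0 leaving out a library. Pairs of a member and a class whose effect differed from that in B cells numbered 2, both of Sod2, against 4 without the filter and 1 to 2 leaving out a library. Gclc in B cells against the other classes turned to 0.19 without TMM scaling (adjusted p = 0.0456), the only called value to turn; the cause was not tested. Of 1116 alternative values of T2D against Con, 55 changed sign, none of them called.

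Genes called without the filter, against the number reported, were 98 against 39 in classical monocytes, 81 against 49 in non-classical monocytes, 513 against 163 in B cells, 506 against 301 in CD8 T cells, 33 against 12 in NK cells, 9 against 0 in platelets and 961 against 575 in all kept cells. With the library number as a block (replicate block) they were 72 in classical and 128 in non-classical monocytes, 450 in B cells, 460 in CD8 T cells, 31 in NK cells and 17 in platelets. DESeq2 called 350 against 547 in CD4 T cells and 938 in all kept cells. A stricter gate gave 21 in NK cells and 1 in platelets, no TMM scaling gave 20 in NK cells, and cells without a platelet marker UMI gave 56 against 118 in neutrophils. Leaving out 1 library gave 17 to 87 in classical and 18 to 67 in non-classical monocytes, 62 to 159 in neutrophils, 32 to 238 in B cells, 326 to 486 in CD4 T cells, 148 to 327 in CD8 T cells, 13 to 21 in NK cells, 0 to 3 in platelets and 59 to 627 in all kept cells.

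The deviations of same-numbered T2D and Con libraries had r from -0.07 to 0.08 in the 7 leukocyte classes, 0.23, 0.04 and 0.11 in platelets and -0.23, 0.41 and 0.37 in all kept cells. Not every pair was over 0.1, so the libraries were taken to share only a number. The block was not run where library was already a term, nor cells without a platelet marker UMI for differences between classes, nor DESeq2 for differences from classical monocytes. Depth limits most the 24 pairs of a member and a class without a test, Nqo1 in every class among them, and classes of 58 to 220 cells per library, where a library held as few as 2 UMIs of Gclm and 6 of Txnrd1.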

Other observations

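Eosinophils and regulatory T cells were too few for a test, and their values stand here without a comparison of groups. The 141 eosinophils held no Hmox1 UMI, and averaged 265 CPM of Cat, 239 CPM of Sod1 and, from 8 and 7 UMIs, 102 CPM of Gclm and 49.6 CPM of Srxn1 over the 6 libraries. The 221 regulatory T cells averaged 341 CPM of Sod1, 283 CPM of Prdx1, 97.5 CPM of Gclc and 96.6 CPM of Sod2, with 1 Hmox1 UMI in all.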
